A study of Mus musculus with 2 samples.

Results

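The small leucine-rich proteoglycans are a family of secreted matrix proteins, and 10 genes of this family and its close relatives were examined: Dcn, Bgn, Aspn, Lum, Fmod, Prelp, Omd, Ogn, Podn and Islr. The rows were found by gene symbol, and all 10 were among the 26100 genes listed for both libraries of the study. The study set mouse embryonic fibroblasts (MEF) beside induced myogenic progenitor cells (iMPC), with 1 droplet-based single-cell RNA library of each. The iMPC had been made from MEF by MyoD, a myogenic transcription factor, together with the agents the labels call F/R/C, and they were kept in medium that contained F/R/C; the series' design text describes them as a single stable clone. The MEF were cultured in MEF media. Both came from mice of the genotype Tg:Pax7-nGFP/C57BL6;DBA2, so the Pax7 reporter transgene is shared by both groups. The labels give no embryonic age and no number of animals. With 1 library per group there was no replicate and no test, and the exact 95% intervals given below reflect counting error alone.

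Small leucine-rich proteoglycans carry a core of leucine-rich repeats that binds collagen fibrils, and many of them also bear chondroitin, dermatan or keratan sulfate chains. They are known for setting fibril diameter and spacing, and several hold growth factors such as TGF-beta in the matrix. In muscle they are mainly made by the fibroblasts of the connective tissue, and some by myogenic cells themselves. Decorin (Dcn), biglycan (Bgn) and asporin (Aspn) form class I; lumican (Lum), fibromodulin (Fmod), Prelp and osteomodulin (Omd) belong to class II; osteoglycin (Ogn) is of class III. Podocan (Podn) falls outside these classes. Islr, also called meflin, combines leucine-rich repeats with an immunoglobulin-like domain and is a relative rather than a strict member of the family.

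Levels are given as UMIs (unique molecular identifiers, counted molecules) of a gene per 1000000 UMIs of the cells named (CPM). Of 6113 MEF barcodes, 6043 had at most 20% mitochondrial UMIs and were kept, with 118069653 UMIs and a median of 18976 per cell. In the iMPC library 9349 cells had at least 8036 UMIs and at most 20% mitochondrial UMIs, with 232728796 UMIs and a median of 20846 per cell. The iMPC cells were divided by UMI counts of stage genes. The Pax7 set (Pax7 at least 1, Myog 0) held 2180 cells, named for the stem cell transcription factor. The Myog set (Myog at least 5, Ckm at most 1) held 1724 cells, named for the factor of early differentiation. The Ckm set (Ckm at least 5) held 1037 cells with the creatine kinase of differentiated muscle, and the Col1a1 set (Col1a1 at least 5) held 556 cells with a fibrillar collagen gene. The Col1a1 set overlapped the Pax7 set in 82 cells, the Myog set in 15 and the Ckm set in 16. No set took in the other 3965 cells. Of the kept iMPC cells 16 have a barcode that also occurs in the MEF library. Median UMIs per cell ran from 18729.5 in the Pax7 set and 21238.5 in the Col1a1 set to 23857.5 in the Myog set and 42148 in the Ckm set, so shares of cells with a UMI were computed after each cell had been thinned to 5000 UMIs. This left out 284 MEF cells. For the main values the share before thinning is given too.

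The labels were checked against 12 marker lists. The 7 fibroblast markers, among them Col1a1, by which the Col1a1 set was chosen, summed to 5600 CPM in MEF, 589 in the Pax7 set, 156 in the Myog set, 66.0 in the Ckm set and 3062 in the Col1a1 set. The 5 myocyte markers summed to 95.7 CPM in MEF, where Ckm was at 0 and Acta1 alone gave 93.1, and to 35316 in the Ckm set. They also summed to 3024 CPM in the Col1a1 set and 620 in the Pax7 set, so these sets hold muscle transcripts too. Smooth muscle markers, Acta2 and Tagln among them, summed to 9884 CPM in MEF and 2802 in the Col1a1 set. Their sums were 434 CPM in the Pax7 set, 867 in the Myog set and 794 in the Ckm set. These 5 markers did not move together. In the Col1a1 set 2 were at least 4-fold lower than in MEF and 1 at least 4-fold higher, beside 2.84% and 6.25% of all genes. Satellite cell markers summed to 67.6 CPM in MEF, where Myf5 and Chrdl2 were at 0, and to 524 in the Pax7 set. They summed to 307 in the Col1a1 set, 180 in the Myog set and 118 in the Ckm set. Committed myoblast markers summed to 0.82 CPM in MEF, 2037 in the Myog set, 1899 in the Ckm set, 229 in the Col1a1 set and 188 in the Pax7 set. These 2 lists hold Pax7 and Myog, and the myocyte list holds Ckm. The sums in the sets chosen by these genes were thus in part fixed by the choice. Over MEF and the 4 sets, tenocyte markers summed to between 4.44 and 26.7 CPM, with Tnmd at 0 in the Myog and Ckm sets, chondrocyte markers to between 22.2 and 69.1, osteoblast markers to between 2.51 and 32.5 and adipocyte markers to between 32.1 and 126. Endothelial, immune and glial markers stayed at or under 3.39 CPM in sum in MEF and in each iMPC set.

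Most of the genes were lower in iMPC than in MEF, and Islr stood on the other side. Of the 7 members that reached 10 CPM in either library, 5 (Dcn, Bgn, Aspn, Lum and Podn) were at least 4-fold lower in iMPC. Islr was 12.5-fold higher and Ogn was 1.88-fold lower. Among all 8605 genes past the same minimum, 7.47% were at least 4-fold lower and 7.31% at least 4-fold higher. The median log2 ratio of the 10 members was -2.20, beside -0.17 over all genes past the minimum. At 4.12-fold, Dcn stood close to the threshold, and it passed under it with 3 other scalings, where the count became 4 of 7. In bulk-like sums of this kind, fewer cells that make a gene and less RNA in each cannot be told apart, and the shares of cells and the cell sets below bear on that.

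**Figure D1:**
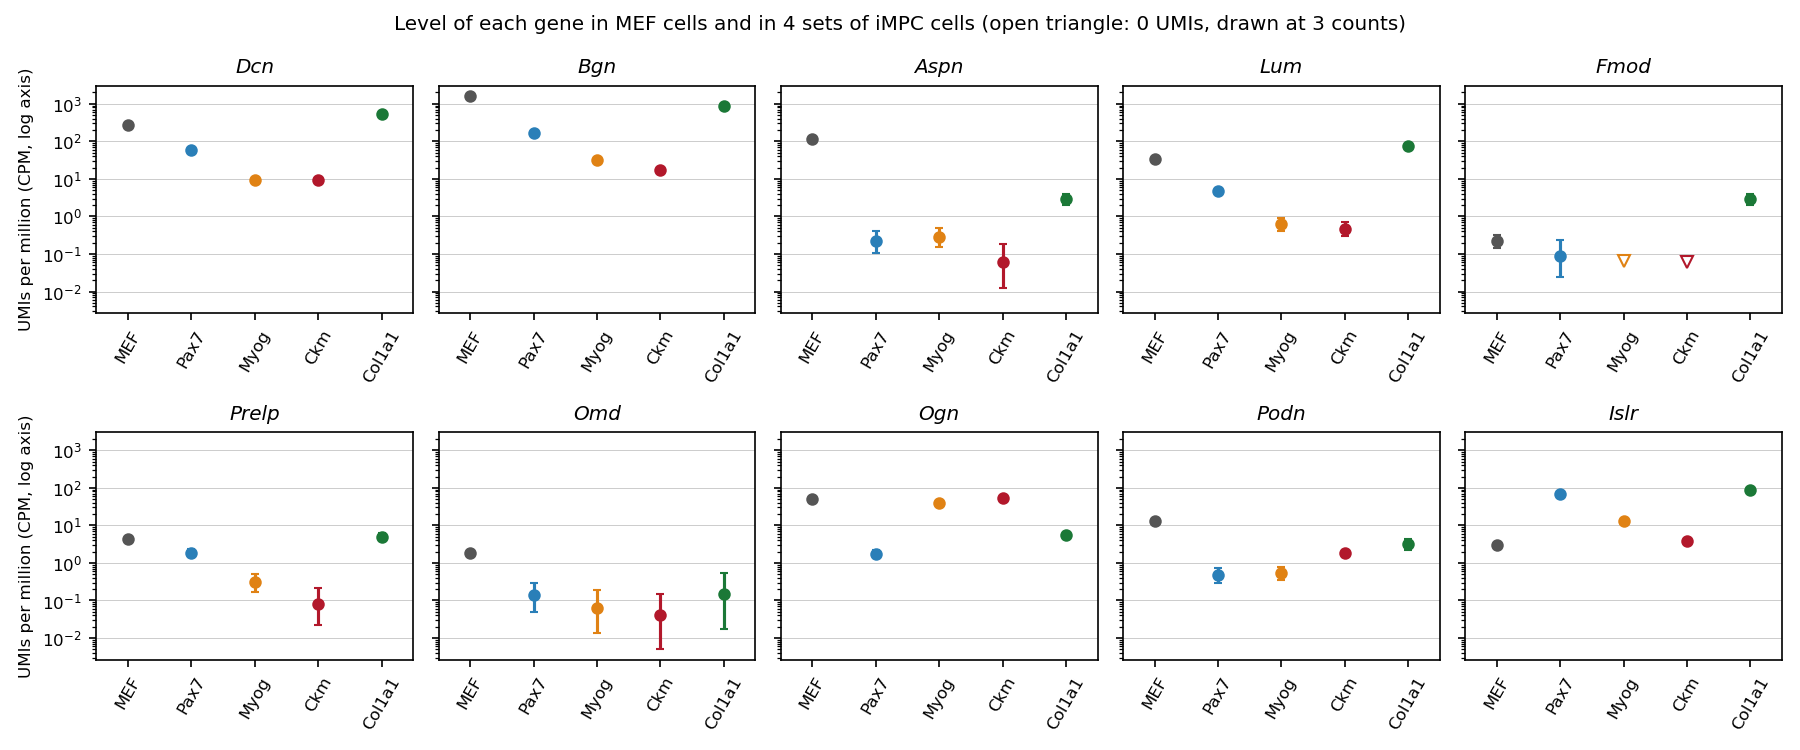
Level of each member in CPM (log axis) in MEF cells and in the Pax7, Myog, Ckm and Col1a1 sets of iMPC cells, with exact 95% Poisson intervals, which are often smaller than the point. Dcn, Bgn and Lum are lowest in the Myog and Ckm sets, Ogn is near its MEF level in those sets and low in the Pax7 and Col1a1 sets, and Islr is higher in the Pax7 and Col1a1 sets than in MEF; the open triangles for Fmod mark 0 UMIs and are drawn at the level of 3 counts.

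Decorin (Dcn), whose protein binds collagen I fibrils and TGF-beta, was at 268 CPM in MEF and 64.9 in iMPC. Within iMPC it was at 58.1 CPM in the Pax7 set, 9.20 in the Myog set, 9.41 in the Ckm set and 533 in the Col1a1 set. Without cells marked as doublets the Myog set was at 3.81 CPM and the Ckm set at 2.58. The Col1a1 set thus lay above MEF, by 1.99-fold (log2 ratio 0.99, 0.96 to 1.03), and the other sets lay below it. After thinning, 52.4% of MEF cells and 7.78% of iMPC cells had a Dcn UMI (73.7% and 11.8% before thinning). The share was 42.8% in the Col1a1 set, 7.29% in the Pax7 set and 2.03% in the Ckm set. The Col1a1 set therefore had fewer Dcn-positive cells than MEF and a higher Dcn level in CPM. The highest single cell held 131 Dcn UMIs in that set and 72 in MEF.

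Biglycan (Bgn), the class I relative with a pair of glycosaminoglycan chains, was at 1574 CPM in MEF, 128 in iMPC as a whole, 167 in the Pax7 set, 31.2 in the Myog set, 17.6 in the Ckm set and 857 in the Col1a1 set. It was the member most evenly spread over MEF and also the highest there, with a median of 28 UMIs per cell. Low counts alone make a gene look less even, and this was not corrected for. A UMI was seen in 96.3% of thinned MEF cells, and the tenth of cells with the most Bgn held 24.1% of its UMIs, beside 18.8% of all UMIs for the tenth with the most UMIs. In iMPC 29.7% of thinned cells had one (48.7% before thinning, and 97.7% in MEF), with 38.8% in the Pax7 set, 8.93% in the Myog set, 4.24% in the Ckm set and 90.3% in the Col1a1 set. Bgn was lower than in MEF in each of these sets, by 1.84-fold in the Col1a1 set and by 89.7-fold in the Ckm set. Without doublets Bgn was at 1572 CPM in MEF and 6.94 in the Ckm set, a wider gap.

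Asporin (Aspn), the class I protein that carries an aspartate stretch in place of a glycosaminoglycan chain and binds TGF-beta, showed the widest gap between the libraries of any member. MEF held 13512 Aspn UMIs (114 CPM) and all 9349 iMPC cells together held 70 (0.30 CPM), a difference of 380-fold (log2 ratio -8.57, -8.93 to -8.23). In the Col1a1 set, where Dcn and Lum were above MEF, Aspn was at 2.91 CPM, 39.3-fold lower than in MEF. It was at 0.23 CPM in the Pax7 set, 0.28 in the Myog set and 0.06, from 3 UMIs, in the Ckm set. A UMI was found in 35.6% of thinned MEF cells (60.3% before thinning). In the Pax7 set 10 of 2180 cells had one before thinning (0.459%) and 0 after it, which leaves the thinned share at most 0.169% (exact 95% limit).

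The class II genes differed among themselves. Lumican (Lum), a keratan sulfate proteoglycan of collagen fibrils, was at 33.9 CPM in MEF, 6.66 in iMPC, 4.86 in the Pax7 set, 0.63 in the Myog set, 0.47 in the Ckm set and 77.4 in the Col1a1 set. Its UMIs were concentrated: the tenth of MEF cells with the most Lum held 78.1% of them, and 56 of the 556 Col1a1-set cells held 94.7%. Lum was 2.28-fold higher in the Col1a1 set than in MEF, with a UMI in 10.4% of thinned cells there and in 11.3% of thinned MEF cells (17.6% and 22.7% before thinning). The intervals of these shares, 8.02 to 13.3% and 10.5 to 12.2%, overlap.

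Fibromodulin (Fmod), which shares lumican's collagen-binding site, was nearly undetected in MEF, at 26 UMIs (0.22 CPM), and its level in all iMPC, 40 UMIs (0.17 CPM), could not be told from that at this depth (log2 ratio -0.36, -1.11 to 0.41). Of the 40 iMPC UMIs, 39 lay in the Col1a1 set, where Fmod was at 2.84 CPM and 12.9-fold above MEF. No Fmod UMI was seen in the Myog or Ckm sets, for which the exact upper limits are 0.0798 and 0.0758 CPM. Prelp, a class II protein that binds heparan sulfate and anchors basement membranes, was at 4.34 CPM in MEF, 1.84 in the Pax7 set, 0.30 in the Myog set, 0.08 in the Ckm set and 4.88 in the Col1a1 set. The Col1a1 set and MEF did not differ beyond counting error in Prelp (log2 ratio 0.17, -0.22 to 0.54). Osteomodulin (Omd), a keratan sulfate protein first known from bone, was at 1.82 CPM in MEF and 0.12 in iMPC, where 29 UMIs were found in all.

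Osteoglycin (Ogn), also called mimecan, did not follow the others. It was at 49.0 CPM in MEF and 26.1 in iMPC, and within iMPC it was at 1.75 CPM in the Pax7 set, 39.9 in the Myog set, 55.1 in the Ckm set and 5.46 in the Col1a1 set. The Ckm set was 31.5-fold above the Pax7 set (log2 ratio 4.98, 4.65 to 5.32) and 1.13-fold above MEF (0.17, 0.10 to 0.24). A UMI was seen in 16.9% of thinned MEF cells, 0.83% of Pax7-set cells, 12.8% of Myog-set cells, 22.4% of Ckm-set cells and 1.44% of Col1a1-set cells. Before thinning the share in the deeper Ckm set was 64.1% and in MEF 35.9%. Within the Ckm set the counts were broad, with a median of 1 UMI per cell, 193 cells with 5 or more and a highest cell of 56. The level in iMPC as a whole depends on how cells are weighted: when every cell counts equally (CPM computed cell by cell and averaged), the log2 ratio of iMPC over MEF was -1.48 in place of -0.91.

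Ogn lies beside Omd and Aspn on chromosome 13, where the order along the plus strand is Ecm2, Aspn (chr13:49544443-49567565), Omd (chr13:49582462-49592822) and Ogn (chr13:49608046-49624501) in GRCm38. Of these 4 only Ogn was above 1 CPM in the Ckm set. The 250 bases before the RefSeq starts of Aspn, Omd and Ogn are therefore shown for comparison (RefSeq, GRCm38.p6, plus strand, 5′ to 3′, at chr13:49544193-49544442, chr13:49582212-49582461 and chr13:49607765-49608014). Ecm2 is not a member, and its window is not part of the comparison. Capitals mark matches on either strand to CAGCTG or to CAGGTG (reverse complement CACCTG), letters that MyoD-type factors can bind, to CTA and TAG spaced by any 4 bases, a core letter pattern of MEF2-type factors, or to TATAAA.
Aspn: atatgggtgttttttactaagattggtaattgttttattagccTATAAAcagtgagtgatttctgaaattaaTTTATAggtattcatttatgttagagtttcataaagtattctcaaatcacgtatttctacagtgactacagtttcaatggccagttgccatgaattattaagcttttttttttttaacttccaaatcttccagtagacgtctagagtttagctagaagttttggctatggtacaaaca
Omd: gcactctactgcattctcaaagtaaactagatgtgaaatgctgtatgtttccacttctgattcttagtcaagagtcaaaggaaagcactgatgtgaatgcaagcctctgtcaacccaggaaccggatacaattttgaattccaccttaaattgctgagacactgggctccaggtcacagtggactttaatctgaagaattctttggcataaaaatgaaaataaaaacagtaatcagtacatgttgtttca
Ogn: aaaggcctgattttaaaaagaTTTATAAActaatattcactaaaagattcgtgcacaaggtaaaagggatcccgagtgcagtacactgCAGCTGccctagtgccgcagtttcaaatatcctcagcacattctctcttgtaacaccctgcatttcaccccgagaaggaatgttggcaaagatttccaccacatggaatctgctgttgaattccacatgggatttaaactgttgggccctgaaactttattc
The Ogn window holds CAGCTG with its first base 162 before the start, and overlapping TATAAA matches on both strands at -229 and -227. The Aspn window holds TATAAA matches at -207 and -178 and the Omd window holds none of the 4 patterns. CAGCTG occurs in 13.0%, CAGGTG or its reverse complement in 17.2%, CTA and TAG so spaced in 3.20% and TATAAA in 12.4% of all 32851 windows of this length. CAGCTG was also found in the windows of Bgn, Islr and Podn, which are not high in the Ckm set, Podn having 2 windows of which 1 holds it. A match describes the letters only.

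Podocan (Podn), a collagen-binding leucine-rich repeat protein found in the vessel wall and kidney, was at 13.0 CPM in MEF and 0.90 in iMPC. It was at 0.48 CPM in the Pax7 set, 0.54 in the Myog set, 1.83 in the Ckm set and 3.13 in the Col1a1 set. Like Ogn it was higher in the Ckm set than in the Pax7 set, by 3.83-fold (log2 ratio 1.94, 1.24 to 2.70), but on 89 UMIs and 7.13-fold below MEF.

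Islr, known as a marker of mesenchymal stromal cells, was the only one of the 10 members with a higher level in iMPC than in MEF. It was at 2.93 CPM in MEF and 36.6 in iMPC, with 67.7 in the Pax7 set, 13.2 in the Myog set, 3.80 in the Ckm set and 85.7 in the Col1a1 set. The Pax7 set was 23.1-fold and the Col1a1 set 29.2-fold above MEF. Only 1.89% of thinned MEF cells had an Islr UMI, and the highest MEF cell held 7. In the Pax7 set 26.3% of thinned cells had one (58.2% before thinning), and in the Col1a1 set 36.2% (73.0%).

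The pooled iMPC values join very unequal cells. The Col1a1 set made up 5.95% of the cells and 5.90% of the UMIs, but it held 48.4% of the Dcn UMIs of iMPC, 39.5% of Bgn, 68.6% of Lum, 57.1% of Aspn and 97.5% of Fmod. Its part of Prelp was 27.6%, of Islr 13.8% and of Ogn 1.23%. Counting only cells with fewer than 5 Col1a1 UMIs, the Ckm and Myog sets held 43.6% and 30.0% of the Ogn UMIs with 20.5% and 19.5% of all UMIs, and the Ckm set held 41.1% of Podn. An alternative doubled the UMI minima of the Pax7, Ckm and Col1a1 sets and left those of the Myog set as they were. With it the smaller Ckm set held 26.0% of Ogn and 30.6% of Podn, and the Myog set 30.1% of Ogn. Islr UMIs were mostly in the Pax7 set (32.6%) and in cells of no set (45.1%), with 21.7% in the Pax7 set at doubled thresholds. Of the Dcn UMIs 36.3% also lay in cells of no set, which held 36.1% of all UMIs.

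**Figure D2:**
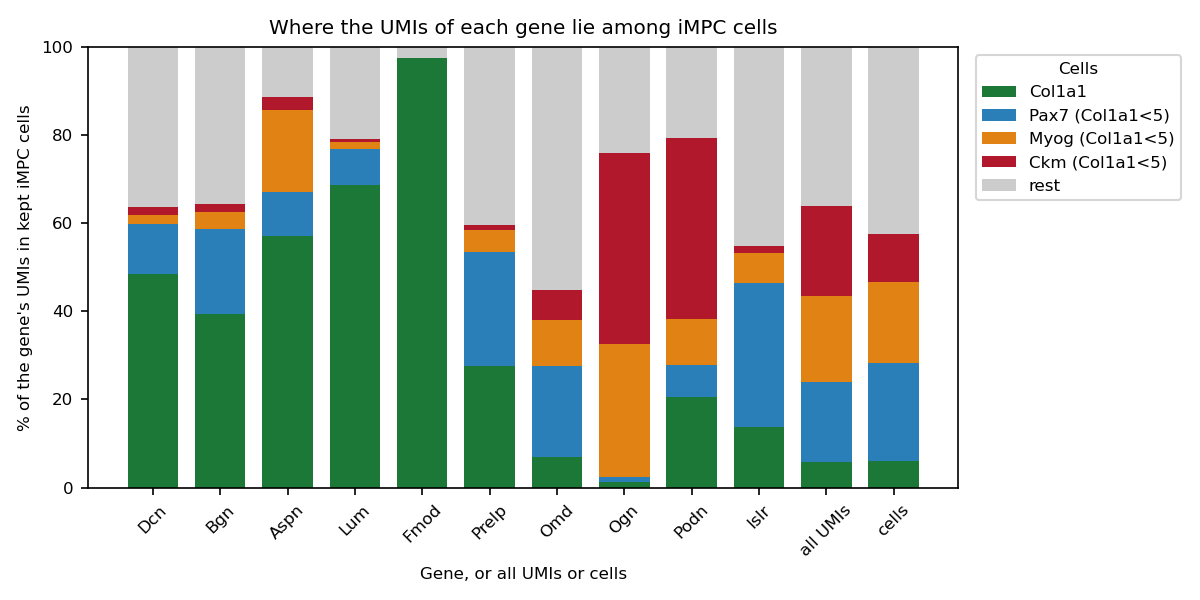
Share of each member's UMIs in kept iMPC cells (%) held by the Col1a1 set, by the Pax7, Myog and Ckm sets with fewer than 5 Col1a1 UMIs, and by cells in no set (grey), beside all UMIs and all cells. The Col1a1 set is a thin band among all cells (5.95%) and the largest coloured band for Dcn, Bgn, Lum, Aspn and Fmod. Ogn and Podn have their largest coloured band in the Ckm set. For Ogn this does not hold when the Ckm minimum is doubled and the Myog minimum is not. Omd and Fmod rest on 29 and 40 UMIs.

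Against MEF, the Pax7 set had 6 of 7 members past the CPM minimum at least 4-fold lower (Dcn, Bgn, Aspn, Lum, Ogn and Podn) and 1, Islr, at least 4-fold higher. The background for this pair was 6.89% of genes lower and 6.47% higher. This comparison and those of all iMPC cells and of the Col1a1 set share the same MEF cells. In the Pax7 set Dcn was held by few cells. Of its 2180 cells 249 had a Dcn UMI, and 110 with 5 or more held 90.2% of the set's Dcn UMIs. Of these 110, 26 also had 5 or more Col1a1 UMIs. Pax7-set cells without a Col1a1 UMI (1855 cells) had Dcn at 27.8 CPM, Lum at 0.70 and Bgn at 116, in place of 58.1, 4.86 and 167. Their log2 ratios to MEF were -3.27 for Dcn and -5.59 for Lum, in place of -2.20 and -2.80.

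Along rising Pax7 counts, in iMPC cells with no Myog UMI and fewer than 5 of Col1a1, Dcn, Bgn and Lum were lower and Islr was not. Dcn was at 161 CPM in cells with 0 Pax7 UMIs (1169 cells), 69.0 with 1, 40.5 with 2, 16.7 with 3 to 4 and 10.7 with 5 or more (212 cells). Bgn went from 225 to 87.9 CPM over the same bins and Lum from 10.7 to 0.20, the last from 1 UMI. Islr was at 53.6 CPM in the first bin and 72.6 in the last. Median depth rose from 15350 UMIs per cell in the first bin to 21722 in the last, and its part was not tested. The Pax7 set also differed by cell cycle marker. Its 1127 cells with a UMI of the proliferation gene Mki67 had Dcn at 22.5 CPM, Lum at 0.60 and Bgn at 104, while the 1053 without one had 113, 11.4 and 263. Islr was at 68.5 and 66.3 CPM in these cells. Median depth was 22221 UMIs with and 15673 without an Mki67 UMI, and its part was not tested. In MEF the 602 cells with an Mki67 UMI also had less Dcn, 170 against 281 CPM, and less Aspn, 63.1 against 122. Bgn was at 1386 against 1600 CPM, Lum at 25.1 against 35.1, Ogn at 34.9 against 50.9 and Podn at 8.56 against 13.7. Prelp and Islr were lower too, while Omd (1.88 against 1.81 CPM) and Fmod (0.35 against 0.20) were not. Median depth in MEF was 23096.5 UMIs with and 18515 without an Mki67 UMI, and its part was not tested.

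**Figure D3:**
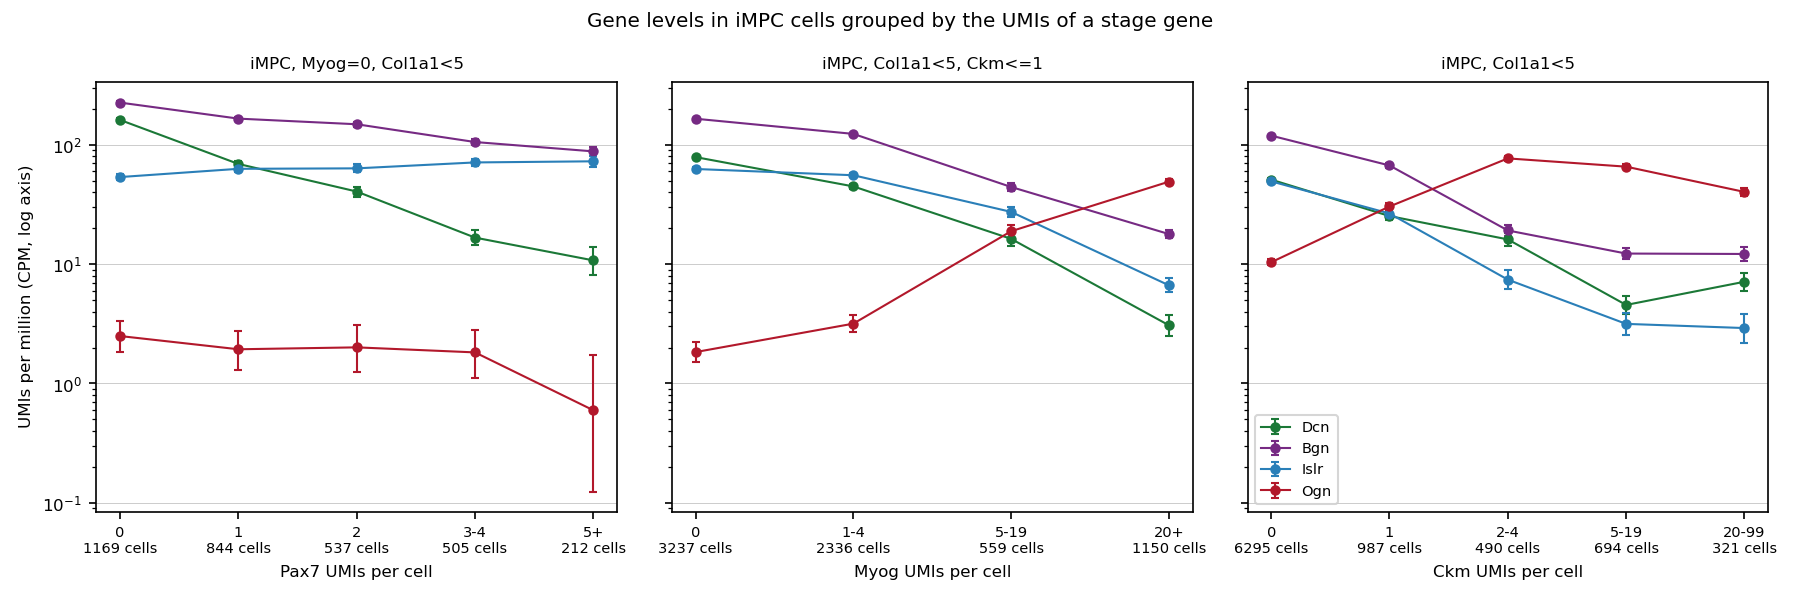
Levels of Dcn, Bgn, Islr and Ogn (CPM, log axis, exact 95% Poisson intervals) in iMPC cells grouped by UMIs of Pax7 (left), Myog (middle) and Ckm (right) per cell, with cell numbers under each bin and bins under 20 cells left out. Dcn and Bgn are lower in bins of more Pax7 and of more Myog, Islr is lower only along Myog and Ckm, and Ogn is higher along Myog and highest at 2 to 4 Ckm UMIs.

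From the Pax7 to the Ckm set, Dcn, Bgn and Islr were at least 4-fold lower and Ogn at least 4-fold higher, out of 4 members that reached 10 CPM in either set. The background was 11.7% of genes lower and 6.62% higher. Dcn was 6.17-fold lower, Bgn 9.51-fold and Islr 17.8-fold. These folds are larger without cells marked as doublets, which leaves 113 of the 458 Dcn UMIs of the Ckm set. Dcn in the Ckm set was then at 2.58 CPM in place of 9.41, Bgn at 6.94 in place of 17.6, and Islr at 1.48 in place of 3.80. Ogn in the Ckm set was at 57.2 CPM without them. With the same cells removed the log2 ratios of the Ckm over the Pax7 set were -4.51 for Dcn, -4.59 for Bgn and -5.51 for Islr.

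The levels moved in steps along the stage genes. In iMPC cells with at most 1 Ckm and fewer than 5 Col1a1 UMIs, Ogn was at 1.83 CPM with 0 Myog UMIs, 3.17 with 1 to 4, 18.8 with 5 to 19 and 49.0 with 20 or more. Islr over the same bins was at 62.6, 55.5, 27.4 and 6.64 CPM, and Dcn at 78.7, 44.7, 16.3 and 3.07. Ogn and Islr thus crossed within the bin of 5 to 19 Myog UMIs and the next one. Along Ckm, Ogn did not go on upwards. It was at 10.4 CPM with 0 Ckm UMIs, 30.4 with 1, 76.8 with 2 to 4, 65.4 with 5 to 19 and 40.2 with 20 to 99. Podn by contrast was at 0.36, 0.61, 1.09, 1.73 and 1.96 CPM over these bins. Median depth ran from 18901 to 51947 UMIs per cell over these Ckm bins and from 17517 to 24950 over the Myog bins. Its part was not tested.

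The Col1a1 set is the part of iMPC nearest to MEF in fibroblast markers, which was in part fixed by its choice through Col1a1, a gene of that list. The members split in this set. Of 7 past the CPM minimum, 3 (Aspn, Ogn and Podn) were at least 4-fold lower than in MEF and 1 (Islr) higher. Over all genes 2.84% were lower and 6.25% higher. Podn was at 4.16-fold, and it fell under the threshold when the total left out mitochondrial and ribosomal protein genes (log2 ratio -1.97), when libraries were scaled by the median of gene ratios (-1.95) and when set thresholds were doubled (-1.69). The 4 members nearest MEF on either side were Prelp at 1.12-fold, Bgn at 1.84-fold lower, Dcn at 1.99-fold and Lum at 2.28-fold higher.

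The amount of Col1a1 in a cell bore differently on the members in the 2 libraries. In iMPC, Dcn was at 23.6 CPM in cells with 0 Col1a1 UMIs, 137 with 1 to 4, 605 with 5 to 19, 460 with 20 to 99 and 401 with 100 or more. In MEF it was at 89.6, 221, 297, 269 and 260 CPM over the same bins. Aspn in MEF was at 5.88, 26.7, 67.4, 125 and 145 CPM, whereas in iMPC it stayed at or under 3.41 CPM in each bin. Ogn in MEF was at 1.47 CPM (0.30 to 4.29, from 3 UMIs) with 0 Col1a1 UMIs and 52.3 with 20 to 99, and in iMPC at 28.4 and 5.85. The order of Ogn along Col1a1 was thus opposite in the libraries. In iMPC most Ogn lay in the Myog and Ckm sets, of which 15 and 16 cells were in the Col1a1 set. Stage and Col1a1 were not separated here. Median depth rose over these MEF bins from 6283 to 28106 UMIs per cell, and ran in iMPC from 18915 to 33342; its part in these levels was not tested.

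**Figure D4:**
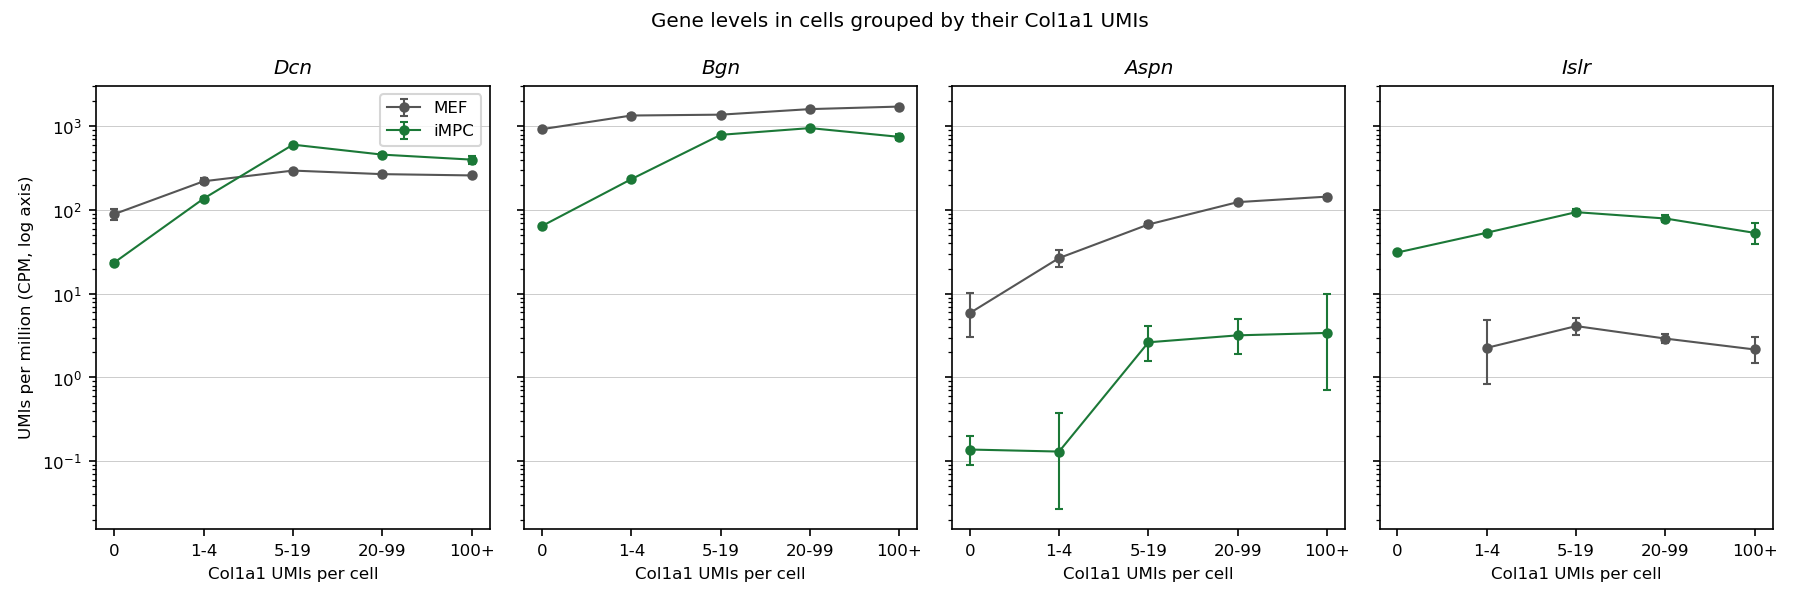
Levels of Dcn, Bgn, Aspn and Islr (CPM, log axis, exact 95% Poisson intervals) in MEF cells (grey) and iMPC cells (green) grouped by Col1a1 UMIs per cell. At 5 or more Col1a1 UMIs Dcn is higher in iMPC than in MEF and Aspn remains far lower; Islr is higher in iMPC in each bin, and its MEF value at 0 Col1a1 UMIs is 0 and not drawn.

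The cells of iMPC with the most Dcn were not all Col1a1-rich. Of those with 5 or more Dcn UMIs, 208 had 5 or more Col1a1 UMIs, 132 had 1 to 4 and 213 had none. The 213 cells still held Col3a1, another fibrillar collagen, at 1722 CPM, with Bgn at 463, Lum at 41.5 and the fibroblast receptor gene Pdgfra at 62.6. In the 7342 cells with neither a Dcn nor a Col1a1 UMI these were at 311, 50.1, 0.10 and 1.48 CPM. Stage genes were present in the 213 cells too: Pax7 at 38.4 CPM (44.6% of cells), Myog at 187 and Ckm at 37.5. In the 7342 cells Pax7, Myog and Ckm were at 47.1, 640 and 104 CPM. The Col1a1 set in turn held 243 cells with no Dcn UMI, at a median depth of 21290 UMIs, near the 20664 of the 208. Bgn was alike in both, at 846 and 882 CPM. Fmod was at 6.28 CPM in the 243 and had 0 UMIs in the 208, with an exact upper limit of 0.710 CPM, and Prelp was at 10.4 and 0.38. Acta2, smooth muscle actin, was at 2502 and 921 CPM. Fmod UMIs were found in 19 iMPC cells, of which 18 had 5 or more Col1a1 UMIs, 9 had a Prelp UMI and 3 a Dcn UMI. Of the 38 Col1a1-set cells with a Prelp UMI, 32 had no Dcn.

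How often members met in the same cell was described by the log2 odds ratio of co-detection in thinned cells, for pairs of genes that were each seen in at least 50 thinned cells of the library. Cells of a library share depth and preparation and are not replicates. Only pairs of members were examined, in both libraries. The counts of pairs have no share over other genes beside them and are not read as a trait of the family. In MEF 18 of 36 pairs had an interval above 0 and 1, Lum with Podn (-0.72, -1.39 to -0.12), below it. Dcn and Lum, neighbours on chromosome 10, were found together in 526 cells where independence gives 342 (2.12, 1.83 to 2.42). On chromosome 13 Aspn with Ogn (1.58), Aspn with Omd (1.63) and Omd with Ogn (1.76) were each above 0 in MEF. Ogn and Islr, which are on different chromosomes, were at 2.11. After thinning to 2000 UMIs only 15 pairs had enough cells, and 8 of them were above 0. Without thinning 26 of 36 were.

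In iMPC 7 of 15 pairs were above 0 and 5 below. Dcn with Lum stood at 6.15 (5.40 to 6.97), Bgn with Lum at 4.35 and Dcn with Bgn at 3.82. Ogn was below 0 with Bgn (-2.85), Islr (-2.36), Dcn (-2.10) and Lum (-2.02), and it met Prelp in 0 cells. Ogn and Islr had thus opposite signs in the libraries, with intervals of 1.53 to 2.69 in MEF and -2.98 to -1.79 in iMPC. A thinned MEF cell held on average 2.23 of the 10 members, a Col1a1-set cell 1.87, a Pax7-set cell 0.75, a Ckm-set cell 0.32 and a Myog-set cell 0.31.

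The genes most like the members over single cells, among genes of at least 50 CPM, were as follows, by Pearson's r of log-scaled counts, with no test. Over the 6043 MEF cells Dcn was nearest to the protease genes Ctsl (0.41) and Ctsk (0.38) and to Agtr2 (0.38). Bgn was nearest to Igfbp7 (0.43), Serpinf1 (0.43) and the collagen chaperone gene Serpinh1 (0.40), and Aspn to Ptn (0.49), Postn (0.45) and Col1a2 (0.42). Dcn and Bgn had an r of 0.01 with each other. Over the 2180 Pax7-set cells Dcn was nearest to Crabp1 (0.68), Ctsl (0.65) and Sat1 (0.56). Bgn was there nearest to the collagen VI genes Col6a2 (0.65), Col6a1 (0.63) and Col6a3 (0.63), and Islr more loosely to the basement membrane collagens Col4a1 (0.27) and Col4a2 (0.26) and to Id3 (0.24). Outside the rule for naming genes, after its values had been seen, Ogn over the 2761 Myog- and Ckm-set cells was compared too, and Palld (0.43), Npnt (0.43) and Hspb2 (0.42) came first.

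Enzymes that build the sugar chains were set beside the core proteins. Over all genes past the minimum, 7.47% were at least 4-fold lower in iMPC and 7.31% higher. Of the 6 linker enzymes, 4 had at least 10 CPM and 0 differed by 4-fold between iMPC and MEF, which for so few genes is near that share. B3gat3, which completes the linker, was at 31.4 CPM in iMPC and 36.6 in MEF, B4galt7 at 10.4 and 25.5, and the kinase gene Fam20b at 10.9 and 16.8. Of 10 chondroitin and dermatan sulfate enzymes past the minimum 3 were lower in iMPC and 0 higher: Chpf2, Chst12, and Dse, the epimerase that makes dermatan sulfate, at 10.5 against 43.0 CPM. Chst12, a sulfotransferase, was at 7.31 against 70.0 CPM and Chpf2, a chondroitin polymerising factor, at 8.30 against 48.8. Chpf was at 13.1 against 42.5 CPM, Chsy1 at 23.9 against 16.9 and Chst15 at 14.6 against 13.0. Of the 5 keratan sulfate enzymes only Chst2 was past the minimum, at 18.4 against 106 CPM, and B4galt4 was at 2.96 against 6.24 and Chst1 at 3.20 against 1.57. Among the 10 other family genes only Optc, at 0.37 against 11.0 CPM, was past it, and Tsku was at 2.86 against 9.98, Podnl1 at 0.77 against 2.18 and Chadl at 0.60 against 1.62.

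The collagen partners and processing enzymes were lower in iMPC in part. Of 10 fibril genes past the minimum 4 (Col1a1, Col1a2, Col12a1 and Fn1) were at least 4-fold lower and 0 higher. The share over all genes, for this list and the next ones, was 7.47% lower and 7.31% higher. Col1a1 was at 79.1 CPM in iMPC and 2289 in MEF, Col1a2 at 167 and 2097 and Fn1 at 261 and 1707, while Col3a1 was at 512 and 711 and Col6a1 at 283 and 366. All 4 processing genes were lower: Bmp1, which cleaves procollagens and several propeptides of the family, at 16.6 against 180.0 CPM, and Pcolce, Lox and Loxl1 at 99.8 against 506, 22.6 against 282 and 15.1 against 96.9. Of the 4 ligand genes Ltbp1 was lower and Tgfb2 higher, at 105 against 10.3 CPM; Tgfb1 was at 16.9 against 56.0 and Tgfb3 at 35.4 against 33.9. Of 7 receptor genes past the minimum 2 were lower, Lrp1 at 66.2 against 292 CPM and Cd44 at 91.9 against 378, and Igf1r was at 189 against 133 CPM.

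Low-level detection was read against free RNA in the iMPC library. In barcodes of 200 to 600 UMIs, Dcn was at 19.1 CPM, Bgn at 71.6, Ogn at 25.3 and Islr at 11.6. If their RNA made up 2.06% of the UMIs of a cell, the ratio of median depths, it would give a UMI in 0.197% of thinned cells for Dcn, 0.736% for Bgn, 0.261% for Ogn and 0.119% for Islr. The lowest shares among the sets, 1.68% for Dcn, 4.24% for Bgn, 0.83% for Ogn and 1.45% for Islr, were above these values. For Aspn the value was 0.0189%. In thinned cells the Myog set, with 1 of 1724 cells, and the Pax7 and Ckm sets, with 0, could not be told from it. Before thinning the value for Aspn was 0.0789%. The shares of cells were then 0.459% (0.220 to 0.842) in the Pax7 set and 0.754% (0.402 to 1.29) in the Myog set, both above it. The Ckm set, at 0.289% (0.0597 to 0.843), could not be told from it. In the MEF library free RNA could not be measured, since the lowest listed barcode holds 503 UMIs.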

How the data were processed

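Cultured cells were dissociated and made into 3′ droplet libraries, 1 of iMPC and 1 of MEF, per the labels' protocols. Each deposited matrix gives UMI counts as whole numbers, not normalized; Cell Ranger 4.0, Seurat 3.2.3 and the build GRCm38.p6 are named in the submitters' processing notes. The iMPC matrix lists 6794880 barcodes and was not filtered for cells, and how the 6113 MEF barcodes were selected is not given in the sources used here. The treatment protocol text of the MEF sample repeats that of iMPC, and its own treatment label was used.

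The 26100 genes in both matrices were kept; 24 more in the MEF matrix held 0.209% of its UMIs. Cells needed at most 20% mitochondrial UMIs and, in iMPC, 8036 UMIs, which is 10% of the 99th percentile of the 10000 largest barcodes. UMIs were summed over cells; CPM has exact Poisson, ratios have conditional and shares have Clopper-Pearson 95% intervals, all for counting error only. A gene counted as different at 4 or more fold when it reached 10 CPM on either side; sums of 0 were set to 3 counts in ratios. No p-value was computed. The counting was tested on simulated data. Doublets were kept; removal of 337 iMPC cells (3.60%, Scrublet's own threshold) and of the 290 highest-scoring MEF cells (4.80%, where its threshold marked 1) was an alternative, beside others of scaling, filters, thinning, set thresholds and free RNA. Named genes are the members, in each partner list the 3 highest in MEF and the 3 highest in iMPC together with those past the threshold, and the 3 most correlated genes for members of at least 50 CPM. Promoter sequences are from RefSeq (GRCm38.p6), where 8 of 10 members matched; gene positions are from GENCODE on GRCm38. Members and lists were chosen with earlier results of these data known. Software was Python 3.11.15, scipy 1.17.1 and scanpy 1.11.5.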

Additional observations from a re-analysis of the deposited data

Results flagged for a closer look

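Barcodes of 1 to 100 UMIs in the iMPC library, which no comparison uses, had higher CPM of 3 members than the kept cells did. Bgn was at 234 CPM there and 128 in the cells, Aspn at 12.7 and 0.30, and Lum at 10.2 and 6.66. Of these small barcodes, 5402 also occur in the MEF library; they had a median of 55 UMIs, beside 2 in the others, and held Aspn at 153 CPM and Bgn at 1304 CPM, beside 7.79 and 197 in the others. In the 16 kept iMPC cells whose barcode also occurs in MEF there were 0 of the 70 Aspn UMIs. With 70 UMIs over 9349 kept cells, 16 cells would seldom hold any, so this 0 cannot decide whether the signal reached kept cells. The part of this signal in the values of kept cells was not tested beyond the subtraction of the profile of larger free-RNA barcodes.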

How the results depend on the processing

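With 1 library per group, all values describe these libraries. No called ratio changed sign under the alternatives run. Fmod between the Ckm and Pax7 sets, a value under the CPM minimum with 0 UMIs on one side, went from -0.56 to 0.33 with CPM averaged cell by cell. The set with most Prelp UMIs went from Col1a1 (27.6%, Pax7 25.9%) to Pax7 (27.5%, Col1a1 26.2%) without doublets. The set with most Ogn UMIs went from Ckm to Myog when the Ckm minimum was doubled and the Myog minimum was not. Among the main results 55 alternative values stayed close to the reported one and 9 moved, and for single members 291 stayed and 69 moved. The median log2 ratio of the members, -2.20, became -1.88 with CPM averaged cell by cell, -2.05 with mitochondrial and ribosomal protein genes taken out of the total and -2.03 with the median of gene ratios. Under that last scaling the median of all genes moved from -0.17 to 0.02. Under these 3 scalings Dcn was at -1.69, -1.89 and -1.87 between iMPC and MEF. With at least 50 CPM, lower members numbered 3 for iMPC, 3 for the Pax7 set and 1 for the Col1a1 set over MEF, as fewer genes were counted; with at least 1 CPM they numbered 5 for the Ckm over the Pax7 set. Co-detected MEF pairs, 18 of 36, became 8 of 15 after thinning to 2000 UMIs and 6 of 10 when 2 UMIs of a gene were required, and 26 of 36 without thinning. Prelp between iMPC and MEF was at -1.45 and Ogn between the Col1a1 set and MEF at -3.87 with each cell's own CPM. Between the Ckm and Pax7 sets Lum was at -4.95 without doublets and -2.11 without cells with Col1a1 UMIs. Depth limits Fmod, Omd and, in iMPC, Aspn, at 40, 29 and 70 iMPC UMIs. No paired analysis was possible because each group has 1 library.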
